A study of Mus musculus with 6 samples.

Results

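The unfolded protein response and the chaperones of the endoplasmic reticulum (ER) were followed through 37 genes. The list was drawn up by symbol from known members of the pathway, with earlier results of these data known. All 37 were found among the 24407 genes of the deposited count table, and all 37 passed the filter on low counts. They comprise 3 sensors, 3 transcription factors, 11 chaperones and cochaperones, 5 genes of oxidative folding, 9 genes of ER-associated degradation (ERAD), 5 targets or feedback genes of the PERK arm, and Wfs1.

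Proteins that enter the ER are folded by chaperones and joined by disulphide bonds, and those that fail are returned to the cytosol and degraded. When unfolded protein builds up, the sensors IRE1 (Ern1), PERK (Eif2ak3) and ATF6 raise chaperone and ERAD genes, slow translation and, through ATF4 and CHOP (Ddit3), turn on amino acid and stress genes. Beta cells, which fold large amounts of proinsulin, depend on this response.

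Pancreatic islets came from wild-type mice (WT) and from Lmna LCS mice (KIKI in the sample titles), which per the series title express lamin C as the only product of Lmna. All mice were C57BL/6 on regular chow, at an age of 70 weeks. Each group had 3 libraries of poly(A) RNA, each a pool over 3 mice, so a library is a separate biological pool and single animals are not seen. The sex of the mice is not given in the labels used here.

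Libraries held 41529670 to 68036676 counts in LCS and 26123654 to 34483948 in WT. Rn45s, Lars2 and Mir6236, rows known to collect reads of ribosomal RNA, took 52.3% to 54.1% of the LCS counts and 7.64% to 18.5% of the WT counts. Outside these rows the depth was 19057533 to 32462401 counts in LCS and 23511554 to 28094765 in WT. The summed level of 10 beta cell markers, in depth-scaled counts (CPM, with library sizes scaled by TMM), was 175311 to 263797 in LCS and 147933 to 172357 in WT, so the RNA was rich in islet transcripts. WT replicate 1 stood apart from the other WT libraries in the ribosomal share (18.5%, against 7.64% in WT replicate 2 and 9.999% in WT replicate 3) and in Lmna. Lmna was at 61.3 CPM in that library, against 27.3 and 21.0 CPM in the other WT libraries and 62.0 to 78.9 CPM in LCS. Lamin A and lamin C share this gene's count, so Lmna gives no check of the genotype labels. Results are therefore given with and without WT replicate 1.

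Across all 6 libraries no gene of the response passed the test. Of the 37 genes, 0 were called higher and 0 lower in LCS at an edgeR adjusted p under 0.05, where 2.06% of the 14539 genes tested were called higher and 0.144% lower. By p before adjustment (under 0.05), Atf4 and Manf were higher (2 genes, against 13.3% of all genes tested) and Atf6, Canx, Edem1, Edem3 and Ero1l lower (5 genes, against 10.8%). DESeq2 called 0 genes higher (6.41% of all genes) and 2 lower (3.95%), Edem3 and Ero1l. Over the 37 genes the median log2 fold change (LCS over WT) was 0.06, and over all genes tested it was 0.01. The range ran from -0.65 for Edem3 to 0.71 for Manf, and 22 genes lay above 0 and 15 below.

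Without WT replicate 1 more genes were called. The test then called 9 of the 37 genes higher in LCS, which is 24.3% of them, against 12.5% of the 14861 genes then tested. These were Manf, Creld2, Sdf2l1, Atf4, Chac1, Trib3, Ppp1r15a, Herpud1 and Edem2. Edem3 was the 1 gene called lower, against 7.68% of all genes. The median log2 fold change over the 37 genes was then 0.17. Over the 14539 genes tested in all 6 libraries it was then 0.04. With WT replicates 1 and 2 both left out, 5 genes were called higher (5.77% of all genes) and 0 lower (2.16%) by edgeR, with the lone WT library assumed to vary like the others. DESeq2 without WT replicate 1 called 10 higher (13.3% of all genes) and 4 lower (10.6%), Atf6, Canx, Edem3 and Ero1l. Each of the other single libraries, when left out, gave 0 calls among the 37 genes in either direction by edgeR. Over all 6 libraries, limma-voom called 13 genes higher (19.9% of all genes) and 9 lower (16.3%) with quality weights, which were 5.56 for WT replicate 2 and 0.323 for WT replicate 1. Without those weights it called 0 higher (2.54%) and 0 lower (0.206%).

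**Figure D1:**
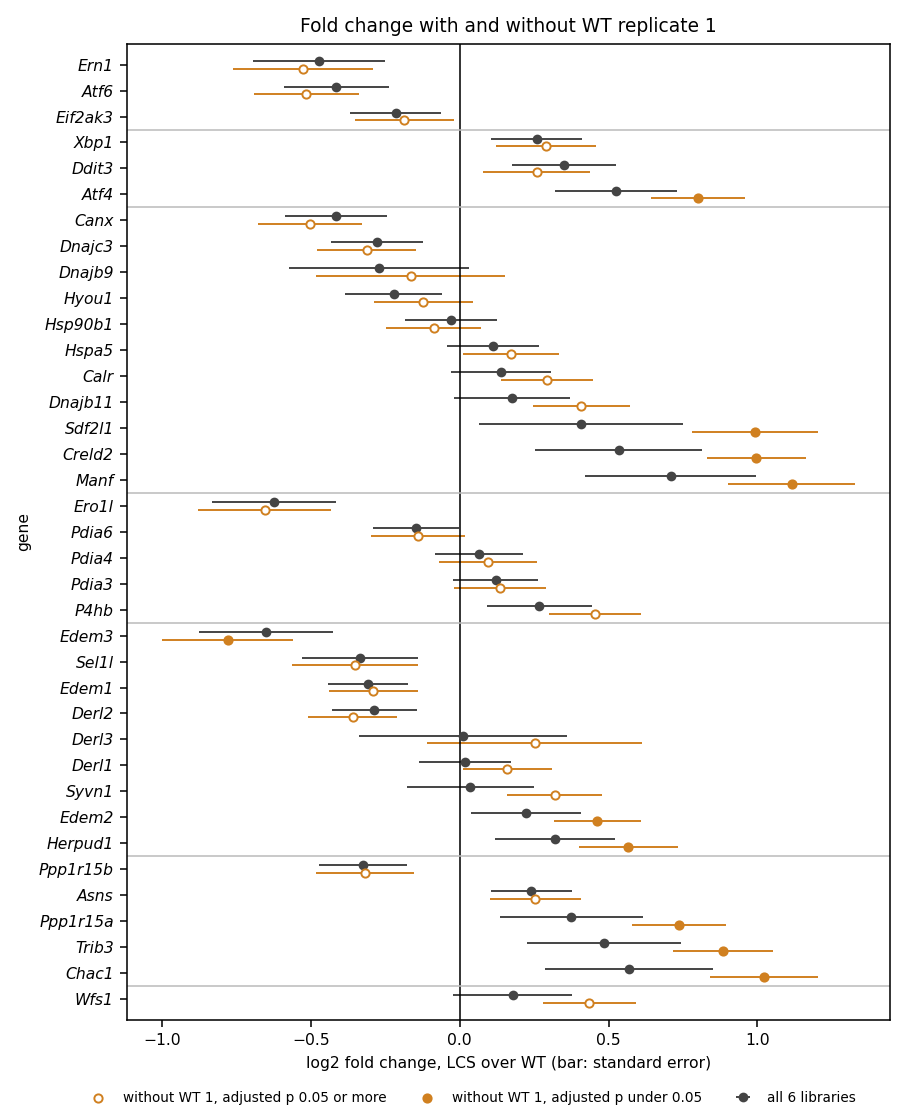
Log2 fold change of LCS over WT (x axis, bars are standard errors) for each of the 37 genes, ordered by role, in all 6 libraries (dark grey) and without WT replicate 1 (orange, filled where the edgeR adjusted p was under 0.05). No grey value passed the test, and 10 orange values are filled, 9 to the right of 0 and Edem3 to the left.

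The 3 sensors all had fold changes below 0, and none passed the edgeR test with or without WT replicate 1. DESeq2 without WT replicate 1 called Atf6 lower (-0.55, DESeq2 adjusted p = 0.0246), where 10.6% of all genes were called lower. With quality weights limma-voom called Atf6 (limma-voom adjusted p = 0.00702) and Ern1 (limma-voom adjusted p = 0.0116) lower, against 16.3% of all genes. Atf6, the ER membrane sensor that is cut in the Golgi to release a transcription factor, had LCS values of 96.5, 116 and 79.2 CPM and WT values of 110.4, 133 and 145 CPM, here and below in the order of replicates 1 to 3. WT replicate 1 lay inside the LCS range and the other WT libraries above it. Its log2 fold change was -0.41 (SE 0.18, edgeR adjusted p = 0.191). Ern1, which encodes the kinase and RNase IRE1, had LCS values of 68.2, 83.6 and 42.3 CPM and WT values of 82.5, 94.8 and 92.3 CPM, with a log2 fold change of -0.47 (SE 0.22, edgeR adjusted p = 0.227). The groups overlapped only through LCS replicate 2. Eif2ak3, the kinase PERK that phosphorylates eIF2 alpha, differed less, at 41.4, 47.5 and 34.5 CPM in LCS and 49.5, 45.5 and 48.4 CPM in WT. Its log2 fold change was -0.22, with a 95% interval of -0.56 to 0.13.

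The transcription factors downstream of the sensors had fold changes above 0. Atf4, whose mRNA is translated when eIF2 alpha is phosphorylated, had LCS values of 298, 279 and 282 CPM and WT values of 268, 179 and 150.0 CPM. All LCS values lay above all WT values, with WT replicate 1 close below the LCS range. The log2 fold change of Atf4 was 0.52 (SE 0.21, edgeR adjusted p = 0.165), and 0.80 (SE 0.16, edgeR adjusted p = 0.00765) without WT replicate 1. Ddit3 encodes CHOP, which acts in prolonged ER stress. It had LCS values of 58.5, 41.8 and 57.5 CPM and WT values of 35.7, 41.1 and 47.0 CPM. WT replicate 1 was the lowest of the 6 libraries, opposite to its place for Atf4. The log2 fold change of Ddit3 was 0.35 (SE 0.18, edgeR adjusted p = 0.254), and it turned to -0.32 with an offset for transcript length and to -0.44 with offsets for length and GC content. Xbp1, whose mRNA is spliced by IRE1 into the form that encodes an active factor, had LCS values of 189, 166 and 221 CPM and WT values of 167, 166 and 148 CPM. LCS replicate 2 overlapped the WT range, and the log2 fold change was 0.26 (95% interval -0.08 to 0.60). A count per gene does not separate spliced from unspliced Xbp1.

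**Figure D2:**
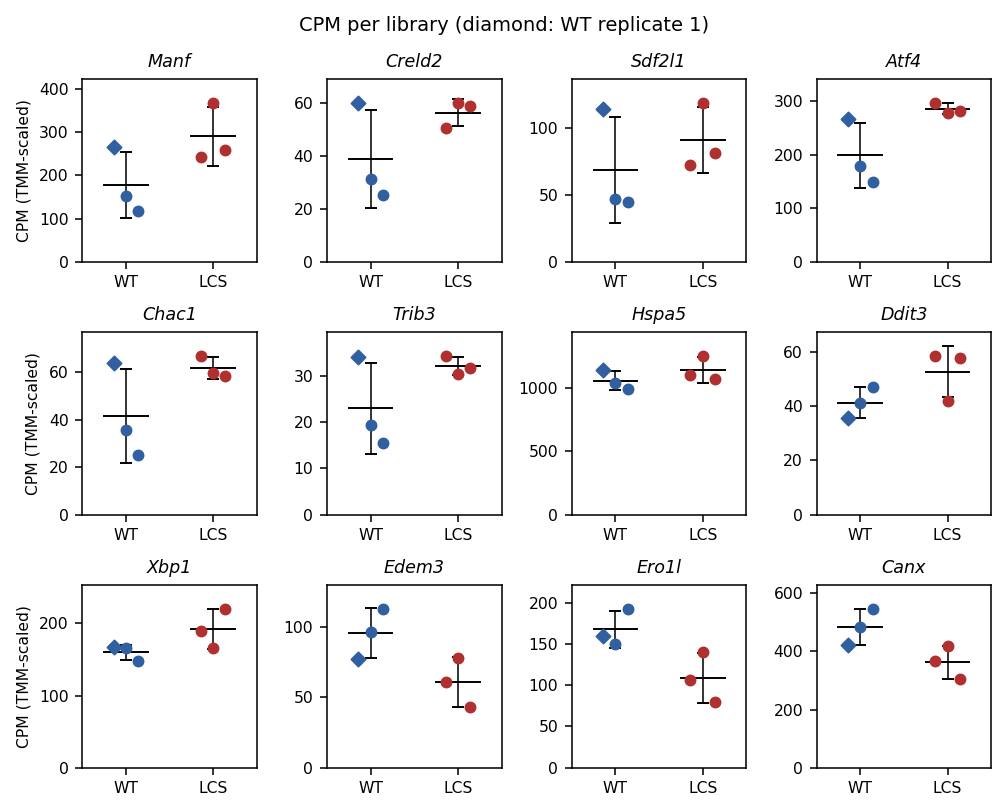
CPM (linear axes from 0) of 12 genes by library, with WT blue, LCS red, a line for the group mean (n = 3) and a bar for the SD. The diamond is WT replicate 1, which lies near the LCS values for Manf, Creld2, Sdf2l1, Atf4, Chac1 and Trib3, at 265 CPM for Manf against 151 and 117 CPM in the other WT libraries.

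Some promoters of these genes carry the ER stress response element (ERSE), the site through which ATF6 and XBP1 act. RefSeq promoters of GRCm38.p6 were matched by gene number for 32 of the 37 genes. Manf, Hyou1, Atf6, Derl1 and Ppp1r15b had no entry, so their promoters were not searched. In the 250 bases before the start, the ERSE (CCAAT, 9 bases of any kind, then CCACG, on either strand, as for each motif) was found for 9 of the 32 genes (28.1%), and in 0.113% of all 32851 promoters. These 9 were Hspa5, Hsp90b1, Calr, Canx, Pdia6, Creld2, Dnajc3, Derl3 and Syvn1. Its variant ERSE-II (ATTGG, 1 base of any kind, then CCACG) was found for Herpud1 alone (0.0304% of all promoters). The core of the unfolded protein response element, TGACGTG, was found for Hspa5 alone (1.65% of all promoters). The composite C/EBP-ATF site bound by ATF4, TGATGNAA, was found for Asns, Chac1 and Herpud1 (3.45% of all promoters). Matches of different motifs did not overlap in these promoters. The 9 genes with an ERSE had log2 fold changes of -0.42 to 0.53 and those with a promoter and no ERSE of -0.65 to 0.57. The difference between these sets was not tested. A match describes the letters only, and binding was not measured. The sequences of 5 promoters are shown because they carry each of these motifs and belong to genes with different fold changes. Each runs 5′ to 3′ on the strand of its gene, with motif matches in capitals.
Hspa5, chr2:34771840-34772089, plus strand, ERSE and the response element core: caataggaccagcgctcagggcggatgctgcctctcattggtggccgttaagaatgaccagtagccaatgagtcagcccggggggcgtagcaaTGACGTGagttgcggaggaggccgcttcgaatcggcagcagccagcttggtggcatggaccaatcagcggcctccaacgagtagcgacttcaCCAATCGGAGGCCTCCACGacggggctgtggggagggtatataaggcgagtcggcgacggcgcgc
Hsp90b1, chr10:86705445-86705694, minus strand, ERSE in 2 places: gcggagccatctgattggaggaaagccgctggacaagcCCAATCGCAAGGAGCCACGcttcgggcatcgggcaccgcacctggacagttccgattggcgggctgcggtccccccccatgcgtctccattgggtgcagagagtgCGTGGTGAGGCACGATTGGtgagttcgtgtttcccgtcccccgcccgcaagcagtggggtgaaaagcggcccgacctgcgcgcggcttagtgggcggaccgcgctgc
Creld2, chr15:88819396-88819645, plus strand, ERSE: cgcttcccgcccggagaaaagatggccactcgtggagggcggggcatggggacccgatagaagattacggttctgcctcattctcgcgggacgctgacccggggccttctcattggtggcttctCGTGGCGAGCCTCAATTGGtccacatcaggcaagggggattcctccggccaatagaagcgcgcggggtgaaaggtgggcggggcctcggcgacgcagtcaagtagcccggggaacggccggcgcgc
Herpud1, chr8:94386179-94386428, plus strand, C/EBP-ATF site and ERSE-II: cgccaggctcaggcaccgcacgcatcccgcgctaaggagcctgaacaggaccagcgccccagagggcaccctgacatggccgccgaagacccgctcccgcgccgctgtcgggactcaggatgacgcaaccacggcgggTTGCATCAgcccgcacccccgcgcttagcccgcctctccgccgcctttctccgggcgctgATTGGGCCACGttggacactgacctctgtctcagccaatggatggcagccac
Chac1, chr2:119350992-119351241, plus strand, C/EBP-ATF site: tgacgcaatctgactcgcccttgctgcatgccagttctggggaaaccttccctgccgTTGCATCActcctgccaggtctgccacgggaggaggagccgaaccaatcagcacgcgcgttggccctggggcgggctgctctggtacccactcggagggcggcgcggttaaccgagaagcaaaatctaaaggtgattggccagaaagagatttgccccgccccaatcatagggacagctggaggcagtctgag

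**Figure D3:**
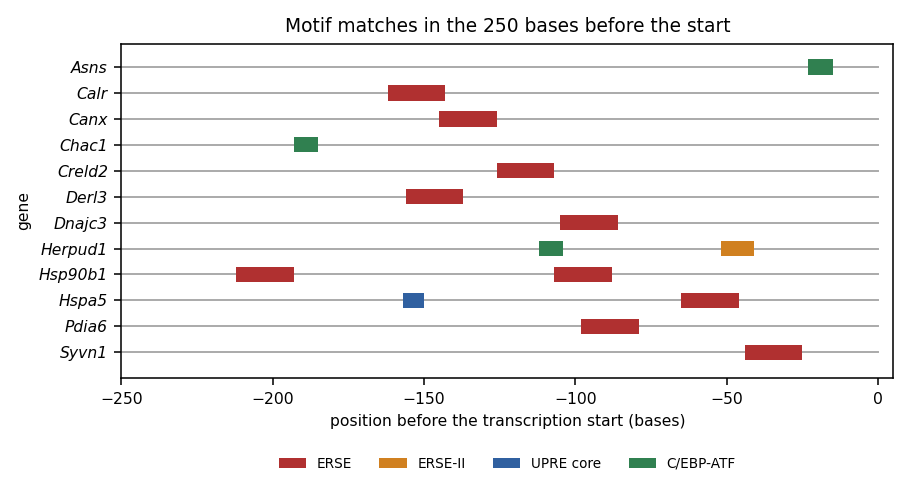
Matches of 4 motifs (coloured bars) in the 250 bases before the transcription start (x axis, bases) of the 12 genes that carry any of them. ERSE matches (red) lie in 9 genes, 2 of them in Hsp90b1, and C/EBP-ATF matches (green) in Asns, Chac1 and Herpud1.

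None of the most abundant chaperones passed the test. Hspa5 encodes BiP, the ER HSP70 that also holds the sensors inactive. It had LCS values of 1099, 1253 and 1069 CPM and WT values of 1139, 1039 and 988 CPM. The groups overlapped and the log2 fold change was 0.11, with a 95% interval of -0.23 to 0.46. Hsp90b1 (the ER HSP90 GRP94) was at -0.03 (95% interval -0.37 to 0.31). Calr (calreticulin, a calcium-binding chaperone of glycoproteins) was at 0.14 (95% interval -0.24 to 0.51). Per kilobase of transcript, Hspa5 had the highest level of the 37 genes, at 436 ± 37.8 CPM per kb in LCS and 404 ± 29.3 in WT (SD, n = 3). In WT, Hsp90b1 at 364 ± 28.6 and Calr at 322 ± 57.3 CPM per kb (SD, n = 3) came next, and these neighbours lay within their spread. The 11 chaperones and cochaperones summed to 4705 ± 557 CPM in LCS and 4696 ± 297 CPM in WT (SD, n = 3).

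Canx, the membrane-bound partner of calreticulin, had LCS values of 367, 418 and 305 CPM and WT values of 422, 484 and 548 CPM. The groups did not overlap, though WT replicate 1 was close to LCS replicate 2. The log2 fold change was -0.42 (SE 0.17, edgeR adjusted p = 0.181), and -0.50 (edgeR adjusted p = 0.0641) without WT replicate 1. DESeq2 without that library gave -0.54 (DESeq2 adjusted p = 0.0197). Dnajc3, an ER J protein that restrains PERK, was at -0.28, Hyou1, an exchange factor of BiP, at -0.22 and Dnajb9, an ER J protein that restrains IRE1, at -0.27. Dnajb9 varied most within LCS relative to its mean (SD over mean), at 128, 256 and 98.5 CPM, against 221, 180.0 and 181 CPM in WT.

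The small secreted or luminal factors Manf, Creld2 and Sdf2l1 had the largest fold changes above 0 among the chaperone genes. Manf encodes a secreted ER stress factor that supports beta cells. It had LCS values of 244, 368 and 259.8 CPM and WT values of 265, 151 and 117 CPM, so that WT replicate 1 lay inside the LCS range and the other WT libraries below it. Manf was at 0.71 (SE 0.29, edgeR adjusted p = 0.174), and 1.12 (SE 0.21, edgeR adjusted p = 0.00684) without WT replicate 1. Creld2, an ER-resident disulphide isomerase-like protein, had LCS values of 50.3, 59.9 and 58.6 CPM and WT values of 60.0, 31.3 and 25.3 CPM. WT replicate 1 was the highest of all 6 libraries. The log2 fold change was 0.53 (SE 0.28, edgeR adjusted p = 0.271), and 0.996 (SE 0.17, edgeR adjusted p = 0.00367) without that library. Sdf2l1, a cofactor of BiP, followed the same order within WT, at 114, 46.9 and 44.8 CPM, against 72.7, 119 and 81.3 CPM in LCS. Its log2 fold change was 0.41 (SE 0.34, edgeR adjusted p = 0.488), and 0.99 (edgeR adjusted p = 0.0105) without WT replicate 1. Dnajb11, another BiP cofactor, was at 0.18, and at 0.41 (edgeR adjusted p = 0.0983) without WT replicate 1.

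In oxidative folding, Ero1l, the oxidase that recharges protein disulphide isomerases, had LCS values of 106, 141 and 79.5 CPM and WT values of 160.2, 151 and 193 CPM. Every WT library lay above every LCS library. Ero1l was at -0.63 (SE 0.21), with an adjusted p of 0.123 by edgeR and 0.0428 by DESeq2. The isomerases themselves differed less. P4hb, which encodes the classical protein disulphide isomerase, had LCS values of 783, 812 and 749 CPM and WT values of 804, 584 and 558 CPM. It was at 0.27 (SE 0.18, edgeR adjusted p = 0.375), and WT replicate 1 lay inside the LCS range. Pdia6, an isomerase that acts on IRE1, had LCS values of 431, 512 and 425 CPM and WT values of 507, 502 and 505 CPM, a log2 fold change of -0.15 (95% interval -0.47 to 0.18). Pdia3, the isomerase that works with calnexin and calreticulin, was at 0.12 and Pdia4 at 0.06.

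ERAD genes were split. Edem3, which trims mannose from misfolded glycoproteins, had LCS values of 61.0, 78.0 and 42.9 CPM and WT values of 77.1, 96.0 and 113 CPM. The groups overlapped only where LCS replicate 2 met WT replicate 1. Edem3 had a log2 fold change of -0.65 (SE 0.22), with an adjusted p of 0.131 by edgeR and 0.0496 by DESeq2, and -0.78 (edgeR adjusted p = 0.0318) without WT replicate 1. Edem1, a related lectin, had LCS values of 99.8, 119.8 and 108 CPM and WT values of 138, 135 and 132 CPM. All WT values lay above all LCS values, at a log2 fold change of -0.31 (SE 0.13, edgeR adjusted p = 0.198). Derl2, a channel component, had LCS values of 78.5, 76.8 and 65.6 CPM and WT values of 80.5, 96.4 and 92.9 CPM, again without overlap (-0.29, SE 0.14, edgeR adjusted p = 0.25). Sel1l, the scaffold of the ERAD ubiquitin ligase, was at -0.34, while Syvn1, the ligase HRD1 itself, was at 0.04 and Derl1 at 0.02.

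Herpud1 and Edem2 had fold changes of the opposite sign to Edem3. Herpud1, an ERAD adaptor, had LCS values of 140.1, 179 and 144 CPM and WT values of 162, 110.3 and 98.4 CPM. It was at 0.32 (SE 0.20, edgeR adjusted p = 0.354) and, without WT replicate 1, at 0.57 (edgeR adjusted p = 0.0376). Edem2 was at 0.22, and at 0.46 (edgeR adjusted p = 0.0477) without that library. Derl3 was the least abundant of the 37 genes, with 53 to 210 counts per library. Its log2 fold change of 0.01 had the widest standard error of the 37 (0.35).

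Among the targets and feedback genes of the PERK arm, Chac1, Trib3 and Ppp1r15a had the same order within WT as Manf and Creld2. Chac1, a glutathione-degrading enzyme induced by ATF4, had LCS values of 66.9, 59.6 and 58.3 CPM and WT values of 63.7, 35.6 and 25.2 CPM. WT replicate 1 was inside the LCS range and the other WT libraries were far below it. Chac1 was at 0.57 (SE 0.28, edgeR adjusted p = 0.251), and 1.02 (SE 0.18, edgeR adjusted p = 0.00477) without WT replicate 1. Trib3, a pseudokinase induced by ATF4 and CHOP, had LCS values of 34.4, 30.5 and 31.7 CPM and WT values of 34.0, 19.5 and 15.4 CPM. It was at 0.48 (SE 0.26, edgeR adjusted p = 0.277), and at 0.88 (edgeR adjusted p = 0.0066) without WT replicate 1. Ppp1r15a encodes GADD34, which directs the phosphatase that reverses PERK signalling. It was at 0.38 (edgeR adjusted p = 0.36), and at 0.74 (edgeR adjusted p = 0.0108) without that library. Ppp1r15b, the constitutive counterpart of GADD34, had LCS values of 64.9, 75.0 and 55.7 CPM and WT values of 82.0, 77.6 and 85.5 CPM. Every WT value lay above every LCS value (-0.33, SE 0.15, edgeR adjusted p = 0.217). Asns, asparagine synthetase, was at 0.24 with no overlap between groups (157, 167 and 186 CPM in LCS, 146, 147 and 138 CPM in WT).

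Wfs1, an ER membrane protein whose loss causes diabetes in Wolfram syndrome, had LCS values of 94.9, 86.7 and 87.3 CPM and WT values of 105, 73.5 and 59.2 CPM. WT replicate 1 was the highest library. The log2 fold change was 0.18 (95% interval -0.27 to 0.62), and 0.44 (edgeR adjusted p = 0.0731) without WT replicate 1.

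The split within the WT group was examined over all 37 genes, after the values had been seen. In 14 genes (37.8%) WT replicates 2 and 3 lay below every LCS library while WT replicate 1 did not, against 14.3% of all genes tested. These were Manf, Creld2, Sdf2l1, Dnajb11, Hspa5, Calr, P4hb, Herpud1, Edem2, Syvn1, Chac1, Trib3, Ppp1r15a and Wfs1. In 13 genes (35.1%, against 15.3% of all genes) WT replicate 1 was at least 1.5-fold the mean of the other WT libraries. The ratio was 2.49 for Sdf2l1, 2.12 for Creld2, 2.096 for Chac1, 1.97 for Manf, 1.95 for Trib3 and 1.85 for Ppp1r15a. In 0 of the 37 genes was WT replicate 1 lower than that mean by the same factor (9.7% of all genes). The mirror order, WT replicates 2 and 3 above every LCS library and WT replicate 1 not, was seen in Atf6, Ern1, Dnajc3, Edem3 and Sel1l (13.5%, against 14.7% of all genes). Groups without any overlap were seen in 3 genes with higher LCS values, Asns, Atf4 and Pdia3 (8.11%, against 14.6%), and in 5 with lower values, Canx, Ero1l, Edem1, Derl2 and Ppp1r15b (13.5%, against 12% of all genes).

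Markers of other cell types also differed between libraries. Plasma and acinar cells are secretory cells with a large ER. The summed level of the 11 plasma and B cell markers found (of 12 listed, 0 of 10 tested called) was 49.4 CPM in WT replicate 1, 20.6 and 23.7 CPM in WT replicates 2 and 3 and 45.3 to 87.2 CPM in LCS. Of these, Jchain was at 15.7, 2.76 and 5.54 CPM in WT replicates 1 to 3. In LCS replicates 1 to 3 Jchain was at 18.9, 55.6 and 24.5 CPM. Mzb1 was at 3.47, 0.617 and 0.810 CPM in WT and at 3.50, 6.27 and 4.34 CPM in LCS. For Jchain and Mzb1, WT replicate 1 was the highest WT library and lay below every LCS library. The 19 acinar markers summed to 252, 275 and 183 CPM in WT replicates 1 to 3 and to 544 to 934 CPM in LCS, with 13 of 14 tested called higher in LCS. The acinar marker tested and not called was Bhlha15, with a log2 fold change of -0.26. It was at 49.3, 55.5 and 39.6 CPM in LCS and at 64.6, 60.1 and 48.8 CPM in WT. Of the 19 acinar markers, Amy2a5 was at 0 in all 6 libraries and Ptf1a at 0 in WT replicates 1 and 3. Thus the acinar sum moved with genotype. The plasma and B cell sum was higher in LCS and WT replicate 1 than in WT replicates 2 and 3. Duct markers summed to 611, 307 and 396 CPM in WT replicates 1 to 3 and to 512 to 635 CPM in LCS. Markers of PP and epsilon cells summed to 3250 to 6032 CPM in LCS and 840.5 to 1491 CPM in WT. Delta cell markers summed to 1316, 487 and 307 CPM in WT replicates 1 to 3 and to 1744 to 2283 CPM in LCS. Stellate cell and fibroblast markers summed to 84.7, 19.99 and 34.5 CPM in WT replicates 1 to 3. In LCS they summed to 27.7 to 53.4 CPM, so WT replicate 1 lay above every other library, LCS included. The part of these cells and of the ribosomal share in the values above was not tested. In bulk islets, fewer cells of a type and less RNA per cell cannot be told apart.

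**Figure D4:**
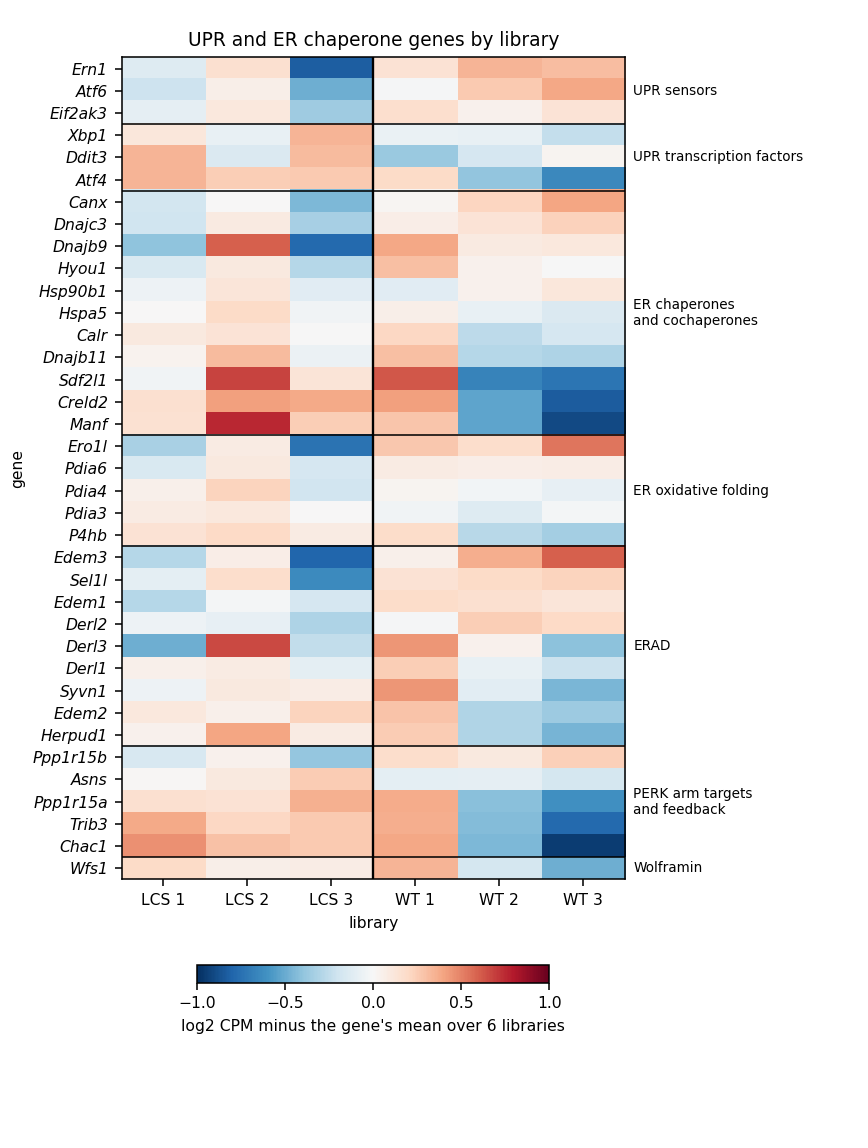
Log2 CPM of the 37 genes (y axis, grouped by role) in each library (x axis), minus each gene's mean over the 6 libraries. WT replicates 2 and 3 are blue for the 14 genes named above, whereas WT replicate 1 is not, and LCS replicate 3 is the bluest library for Ern1, Dnajb9, Edem3, Sel1l and Ero1l.

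The LCS libraries varied among themselves as well. LCS replicate 2 was the highest and LCS replicate 3 the lowest of the LCS libraries in 20 of the 37 genes (54.1%), against 24.8% of all genes tested. The 3 sensors were all among them: summed, they were at 206, 247 and 156 CPM in LCS replicates 1 to 3 and at 242, 274 and 286 CPM in WT. LCS replicate 2 was also the deepest library and had the highest plasma and B cell sum (87.2 CPM). The part of depth and of these cells was not tested. In 7 genes LCS replicate 2 was instead the lowest of the LCS libraries: Atf4, Ddit3, Xbp1, Edem2, Trib3, Ppp1r15a and Wfs1.

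Transcript length and base composition moved with the fold changes. The 22 genes above 0 had a median transcript length of 2157 nt and a median GC content of 53.6%. The 15 genes below 0 had medians of 4418 nt and 46.6%. Protein-coding genes tested had a median log2 fold change of 0.71 when up to 1000 nt long and 0.31 for those of 1000 to 2000 nt. It was -0.01 between 2000 and 4000 nt and -0.24 for longer ones. Among the 37 genes the medians were 0.41 in the class of 1000 to 2000 nt (7 genes), 0.12 between 2000 and 4000 nt (20 genes) and -0.34 for the longest class (9 genes). Ddit3, at 890 nt, was the 1 gene in the shortest class. With offsets for length and GC content in all 6 libraries, Canx was at -0.04, Atf6 at -0.03, Ero1l at -0.25, Atf4 at 0.25, Chac1 at 0.22 and Creld2 at 0.13. Manf at 0.62 and Edem3 at -0.59 kept most of their size. Without WT replicate 1, a length offset left 8 genes called higher (7.24% of all genes) and 1 lower (6.46%), Edem3. With offsets for both and without that library, 1 of the 37 genes was called higher, Manf (0.98, edgeR adjusted p = 0.0141, 4.46% of all genes called higher). Edem3 (-0.71, edgeR adjusted p = 0.0381) and Ddit3 (-0.64, edgeR adjusted p = 0.0292) were called lower (4.06% of all genes). Atf4 at 0.40 and Ppp1r15a at 0.40 then had edgeR adjusted p of 0.067 and 0.0506.

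**Figure D5:**
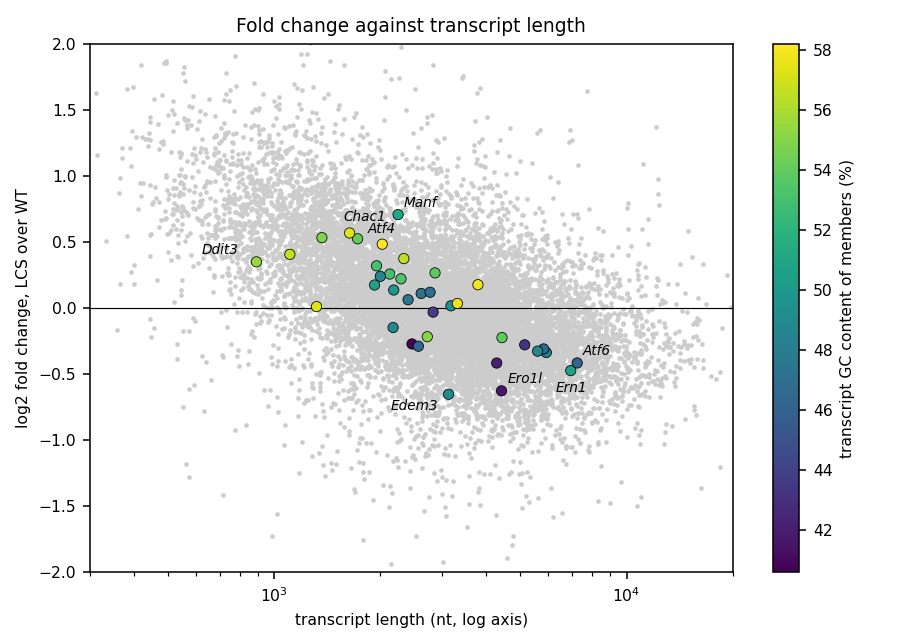
Log2 fold change of LCS over WT (y axis) against transcript length (x axis, nt, log scale) for protein-coding genes tested (grey, 58 of 13630 outside the axes) and the 37 genes, coloured by GC content. The 9 genes longer than 4000 nt all lie below 0, while Chac1, Atf4 and Manf are shorter and lie above 0.

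Other genes of the same pathways were taken from lists, and few passed the test across all 6 libraries. In that fit 2.06% of all genes tested were called higher and 0.144% lower. More were called without WT replicate 1, where 12.5% of all genes were called higher and 7.68% lower. Among 29 other ER chaperones 1 was called higher (2.06% of all genes) and 0 lower (0.144%). Cnpy2, an ER-resident protein, was at 110.1 ± 12.6 CPM in LCS against 62.9 ± 4.97 CPM in WT (SD, n = 3), a log2 fold change of 0.81 (edgeR adjusted p = 0.0221). With length and GC offsets it was at 0.37 and did not pass (edgeR adjusted p = 0.0958). Ppib, an ER prolyl isomerase, came next at 0.65 (edgeR adjusted p = 0.0657). Of the 29, 6 were called higher and 1 lower without WT replicate 1. Among 21 other isomerases and oxidoreductases 2 were called higher (2.06% of all genes) and 0 lower (0.144%). These were Prdx4, the ER peroxiredoxin (1.18, edgeR adjusted p = 0.0419), and Selm, an ER selenoprotein (1.36, edgeR adjusted p = 0.0454). With length and GC offsets neither passed, Prdx4 at 0.60 (edgeR adjusted p = 0.12) and Selm at 0.32 (edgeR adjusted p = 0.165). Of the 21, 3 were called higher and 3 lower without WT replicate 1.

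Of 35 other ERAD genes edgeR called 0 (2.06% of all genes higher and 0.144% lower). An unadjusted p under 0.05 gave 4 higher (13.3% of all genes) and 5 lower (10.8%). The smallest p were those of Rad23b and March6, both at -0.59. Leaving out WT replicate 1 gave 5 called higher (12.5% of all genes) and 2 lower (7.68%). Of 27 other genes of UPR signalling that were tested (29 listed) edgeR called 0 (2.06% of all genes higher and 0.144% lower). An unadjusted p under 0.05 gave 3 higher (13.3% of all genes) and 2 lower (10.8%). The smallest p belonged to Eif2b2, a subunit of the exchange factor eIF2B, at 0.74 and to Eif2ak2, the eIF2 alpha kinase PKR, at -0.61. Leaving out WT replicate 1 gave 2 called higher (12.5% of all genes) and 1 lower (7.68%).

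Among 46 other ATF4 and CHOP targets 1 was called higher (2.06% of all genes) and 0 lower (0.144%). Nupr1, a stress-induced nuclear protein, had LCS values of 270.4, 284 and 268 CPM and WT values of 149, 151 and 155 CPM. WT replicate 1 lay with the other WT libraries here, unlike for Chac1 and Trib3. Its log2 fold change was 0.85 (edgeR adjusted p = 0.0132), and 0.84 (edgeR adjusted p = 0.00464) without WT replicate 1. With length and GC offsets Nupr1, whose transcript has 829 nt, was at 0.07 (edgeR adjusted p = 0.86). Cebpg, a partner of ATF4, was at -0.57 (edgeR adjusted p = 0.0911), and at -0.68 (edgeR adjusted p = 0.0167) without WT replicate 1. In that comparison 10 of the 46 were called higher and 3 lower, against the 12.5% and 7.68% of all genes.

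Protein translocation into the ER is the step before folding. Of its 37 genes 2 were called higher (2.06% of all genes) and 0 lower (0.144%). These were Ost4, a subunit of oligosaccharyltransferase, at 0.81 (edgeR adjusted p = 0.0225) and Srp14, of the signal recognition particle, at 0.63 (edgeR adjusted p = 0.0482). With length and GC offsets neither passed, Ost4 at 0.13 (edgeR adjusted p = 0.558) and Srp14 at -0.06 (edgeR adjusted p = 0.804). Of the 37, 10 were called higher (12.5% of all genes) and 3 lower (7.68%) without WT replicate 1. The median log2 fold change of these genes was 0.09, against 0.06 for the 37 genes of the unfolded protein response. Of 34 chaperones of the cytosol and mitochondria edgeR called 0 (2.06% of all genes higher and 0.144% lower). An unadjusted p under 0.05 gave 8 higher (13.3% of all genes) and 0 lower (10.8%). Hspb1 at 1.26 and Hspe1 at 0.57 had the smallest p. Without WT replicate 1, 9 of the 34 were called higher (12.5% of all genes) and 0 lower (7.68%). Hspb1 (edgeR adjusted p = 0.0157) and Hspe1 (edgeR adjusted p = 0.0313) were among the 9. The 8 genes named from these lists that did not pass across all 6 libraries were Ppib, Rad23b, March6, Eif2b2, Eif2ak2, Cebpg, Hspb1 and Hspe1. Each was called by DESeq2 over all 6 libraries and by edgeR without WT replicate 1. They were picked for their small p in these same libraries, so these calls are no independent support. With length and GC offsets in all 6 libraries none of the 8 passed (edgeR adjusted p of 0.0958 to 0.906). Ppib, at -0.03, and Hspe1, at -0.19, then changed sign, and the others kept theirs.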

How the data were processed

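The authors deposited raw counts per gene for 6 libraries in 1 table of 24407 genes, as whole numbers that were not normalised. Per the labels' protocols, TRIzol RNA went into TruSeq Stranded libraries. HTSeq 0.9.0, TopHat2 2.1.1, Bowtie2 2.2.9, bcl2fastq 2.20, FastQC and the build mm9 are listed, per the submitters' processing notes, with no role or order. Which annotation and strand setting were used is not given in the sources used here. Reads of overlapping or antisense genes may therefore be mixed.

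Groups came from the labels. The test was that of edgeR 4.0.16 in R 4.3.3 (filterByExpr, TMM, quasi-likelihood, genotype as the only term) over 14539 genes in all 6 libraries, with Benjamini-Hochberg adjustment and an adjusted p under 0.05 for a call. A log2 fold change above 0 means higher in LCS. Alternatives used DESeq2 1.42.0 and limma 3.58.1. Transcript length and GC content are medians over GENCODE M21 transcripts with a curated RefSeq entry (95.0% of tested genes, all 37 members), used for names and composition and not for coordinates of the counts. Offsets used loess with a span of 0.5 on protein-coding genes. Promoter coordinates are those of the RefSeq table (GRCm38.p6), not of mm9. The edgeR fit was tested on simulated counts that held no outlying WT library and no trend with length or GC content. That test therefore does not cover these features.

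The genes and the lists were chosen with earlier results of these data known. By the rule for named genes, all 37 genes are accounted for, and values of every library are given for the 3 genes of smallest p in each role and for Hspa5, Xbp1, Atf4 and Ddit3; other genes given by library were chosen after their values were seen. Of each related list, genes that passed the test are named, and otherwise up to 2 of smallest p. Figures were drawn with matplotlib 3.10.9.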

Additional observations from a re-analysis of the deposited data

How the results depend on the processing

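No paired analysis was possible because the labels give no replicate numbers that the groups share. Among 37 genes and 19 alternatives, 601 of 702 fold changes kept their sign and their side of the threshold and 37 changed sign. In all, 65 passed the test where the fit to all libraries did not, 1 of them (Ddit3) with its sign changed. Outside the fits that left out WT replicate 1 or weighted the libraries by quality, 2 calls were made, Edem3 and Ero1l by DESeq2 (2 lower). Leaving out each library gave 0 to 9 genes called higher, 0 to 1 lower and a median of 0.02 to 0.17. The 9 and the 1 came without WT replicate 1, where 12.5% of all genes were called higher and 7.68% lower. Without WT replicates 1 and 2 together, 5 were called higher and the median was 0.21. Voom quality weights, which were 5.56 for WT replicate 2 and 0.323 for WT replicate 1, gave 13 higher and 9 lower (19.9% and 16.3% of all genes). Voom without them, chosen after the data were seen like the combined fits that follow, gave 0 and 0. Without WT replicate 1, DESeq2 called 10 higher and 4 lower (13.3% and 10.6% of all genes). A length offset there gave 8 and 1 (7.24% and 6.46% of all genes). Length and GC offsets there gave 1 and 2 (4.46% and 4.06% of all genes).

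The sign of a fold change turned as follows, and the cause was not tested. With a length offset, Ddit3 was at -0.32, Derl3 at -0.35 and Sdf2l1 at -0.042. With length and GC offsets, Ddit3 was at -0.44, Derl3 at -0.45, Sdf2l1 at -0.11, Syvn1 at -0.041, Dnajc3 at 0.12, Edem1 at 0.032 and Hsp90b1 at 0.14. Without WT replicate 1 and with a length offset, Ddit3 was at -0.47, Derl3 at -0.20 and Hyou1 at 0.043. With length and GC offsets there, Ddit3 was at -0.64, Derl3 at -0.43, Dnajb9 at 0.10, Dnajc3 at 0.20, Edem1 at 0.15, Hsp90b1 at 0.14 and Ppp1r15b at 0.012. DESeq2 size factors gave -0.0031 for Derl1 and -0.0070 for Derl3, and the DESeq2 test -0.0032 and -0.0097. Quality weights gave -0.17 for Derl3, and the filter at 10 CPM gave 0.038 for Hsp90b1 and removed Derl3. Leaving out each library gave -0.078 to 0.16 for Derl1, -0.40 to 0.25 for Derl3, -0.088 to 0.028 for Hsp90b1, -0.012 to 0.17 for Pdia4 and -0.15 to 0.32 for Syvn1. Depth limits Derl3 most, which had 53 counts in the library with fewest.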
